A study of Mus musculus with 12 samples.

Results

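The kinesin motor genes were taken as the protein-coding mouse genes whose GENCODE M21 symbol is Kif or Kifc followed by a family number and, in some, a letter. This rule found 41 of the 35975 genes in the files, and each gene's estimated counts were summed over its transcripts. The 41 genes were split by their best known role into 13 mitotic kinesins, 16 transport kinesins and 12 other kinesins. Kifc5b, a near-identical copy of Kifc1, does not match the rule and is not a member. Cenpe, a mitotic kinesin, does not match it either and is counted below among the spindle partners. At least 1 count was found for every member.

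Kinesins are motor proteins that use ATP to walk along microtubules or to shorten them. Mitotic kinesins build and slide spindle microtubules, move chromosomes and form the midzone at which a dividing cell is cut, and their genes belong to the set that cycling cells transcribe late in the cell cycle. Transport kinesins carry vesicles, organelles and mRNAs, often over long distances in neurons, and the heterotrimeric kinesin made of Kif3a and Kif3b also builds cilia by intraflagellar transport.

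The 12 RNA libraries came from primordial germ cell-like cells (PGCLCs) of the mouse, which resemble the founders of the germ line, in 4 groups of 3 samples. The labels call these biological replicates and say no more of how separate they were. All derive from the embryonic stem cell line E14TG2a, grown with 2i, LIF and vitamin C. The cells were turned into epiblast-like cells (the priming step) and then aggregated, and the aggregates received LIF, EGF, SCF, BMP8 and BMP4 over 4 days. TKO_40h, TKO_48h and TKO_96h were primed for 40, 48 and 96 h and carry the genotype labelled TKO, known from the study to be knockouts of Dnmt1, Dnmt3a and Dnmt3b, the DNA methyltransferase genes. WT_40h is the wild-type line primed for 40 h, so WT was sequenced at 1 priming time. The sample titles name no separate clones, so other differences between the lines cannot be told apart from the genotype. Whether sorted germ cell-like cells or whole aggregates gave the RNA is not in the labels. In such bulk RNA, fewer cells of a type and less RNA per cell cannot be told apart.

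Libraries held 6570180 to 9114128 estimated counts. Dnmt1 was at 64.9 to 152 counts scaled to library size (CPM) in the TKO libraries and at 426 to 450 CPM in WT_40h. All 10 germ cell markers on a list of such genes were counted in every group, and their summed level was 1439 to 1952 CPM in the TKO libraries and 1407 to 1482 CPM in WT_40h. TKO_48h replicate 1 had the fewest genes with at least 10 counts (13530 against up to 15409) and the lowest sums of kinesin length-scaled abundance (TPM), although its kinesin CPM were not low. Ribosomal RNA made up 1.78 to 2.15% of counts in TKO_48h, against 0.907 to 1.11% in TKO_40h, and 0.907 to 1.63% over all other libraries. Lars2 and Ccnb1ip1 together made up 3.06% of counts in TKO_96h replicate 1, against 1.3 to 1.93% in the other libraries.

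The genes of the spindle motors carried a short DNA word that the other kinesin genes mostly lacked. The CHR, the cell cycle genes homology region, is an element of late cell cycle promoters, and its core reads TTTGAA. RefSeq promoters of the GRCm38.p6 build, 250 bases before to 50 bases from the annotated start on, were at hand for 32 of the 41 genes. The word stood on either strand in 10 of 12 mitotic kinesin genes, 1 of 10 transport kinesin genes (Kif1a) and 2 of 10 other kinesin genes (Kif26b and Kif27), and in 17.9% of all 32851 promoters. It lay within 50 bases of the start in 8 mitotic, 1 transport and 1 other kinesin gene, and in 4.94% of all promoters. Shown are the promoters of the 3 mitotic genes called below, Kif11, Kif20b and Kif23, with that of Kif4, which was not called, and that of Kif21a, which had the smallest adjusted p of all kinesins and no such word. Capitals mark the CHR core, read as TTTGAA or, on the opposite strand, as TTCAAA.
Kif11 (chr19:37376132-37376431, plus strand): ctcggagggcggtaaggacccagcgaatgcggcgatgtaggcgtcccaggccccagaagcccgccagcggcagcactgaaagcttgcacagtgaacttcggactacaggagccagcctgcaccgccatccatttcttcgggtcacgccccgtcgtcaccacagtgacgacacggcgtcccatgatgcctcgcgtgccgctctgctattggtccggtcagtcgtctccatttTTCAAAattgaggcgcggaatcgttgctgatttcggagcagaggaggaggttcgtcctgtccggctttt
Kif20b (chr19:34922108-34922407, plus strand): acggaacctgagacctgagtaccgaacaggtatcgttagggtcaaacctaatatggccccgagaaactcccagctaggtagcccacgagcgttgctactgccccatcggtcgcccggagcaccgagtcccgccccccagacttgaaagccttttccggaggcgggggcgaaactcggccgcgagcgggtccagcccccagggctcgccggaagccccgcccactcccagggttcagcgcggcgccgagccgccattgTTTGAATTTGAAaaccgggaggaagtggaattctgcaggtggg
Kif23 (chr9:61946750-61947049, minus strand): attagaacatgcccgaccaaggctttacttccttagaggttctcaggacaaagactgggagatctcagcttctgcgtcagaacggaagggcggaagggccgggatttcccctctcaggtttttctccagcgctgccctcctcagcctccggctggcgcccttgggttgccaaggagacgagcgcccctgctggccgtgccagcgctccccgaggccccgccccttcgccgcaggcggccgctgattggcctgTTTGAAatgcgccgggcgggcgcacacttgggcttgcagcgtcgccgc
Kif4 (chrX:100625815-100626114, plus strand): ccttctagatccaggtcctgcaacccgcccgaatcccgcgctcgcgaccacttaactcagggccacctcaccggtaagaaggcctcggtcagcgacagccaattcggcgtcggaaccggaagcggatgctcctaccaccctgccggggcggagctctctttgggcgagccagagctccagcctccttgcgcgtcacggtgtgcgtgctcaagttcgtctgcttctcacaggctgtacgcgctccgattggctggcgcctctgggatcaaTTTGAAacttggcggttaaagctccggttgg
Kif21a (chr15:91049902-91050201, minus strand): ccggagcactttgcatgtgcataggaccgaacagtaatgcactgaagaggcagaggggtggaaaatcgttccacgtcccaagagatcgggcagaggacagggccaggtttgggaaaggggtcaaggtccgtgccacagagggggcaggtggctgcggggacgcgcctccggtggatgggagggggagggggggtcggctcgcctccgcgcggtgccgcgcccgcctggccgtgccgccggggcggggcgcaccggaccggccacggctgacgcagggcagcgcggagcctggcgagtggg

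The first base of the word was 19 bases before the start in Kif11, 2 bases after it in Kif23 and 19 bases after it in Kif4. Kif20b held the word in tandem, at 7 and 13 bases after the start. The CCAAT word, which can stand with a CHR, was found on either strand in 8 of 12 mitotic, 3 of 10 transport and 4 of 10 other kinesin genes, and in 37.4% of all promoters. The E2F-type word TTTGGCGC was found in Kif15 and Kif18a, of which Kif18a had no CHR core (0.514% of all promoters), and TTTCGCGC in none of the kinesin promoters (0.323% of all). TTCGAA, a CHR variant, was found in Kif24 and in 1.56% of all promoters. These are matches of letters and not measured binding. In 6 members, Kif1a, Kif2c, Kif4, Kif14, Kif17 and Kif27, a RefSeq start lay more than 300 bases from the GENCODE gene start, by 328 bases in Kif4 and by 1505 to 19471 bases in the others. The word in Kif1a lay in the promoter of its distant start, 19471 bases away. Likewise, the words in mitotic Kif14 and Kif2c and in Kif27 lay in promoters of starts 1505, 3867 and 4175 bases away.

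CpG dinucleotides, the sites that the missing methyltransferases act on, were frequent in most kinesin promoters. The median was 25.5 CpG in mitotic, 28.5 in transport and 26 in other kinesin promoters, against 7 over all 32851 promoters. Kif13a had the most, 62. Few were found in Kif12 and in 1 of the promoters of Kif1a (1 each), Kif2c and Kif27 (2 each) and Kif14 (3). For Kif2c, Kif27 and Kif14 the RefSeq starts lay 3867, 4175 and 1505 bases from the GENCODE gene starts. CpG at those gene starts were not counted. Methylation was not measured in these libraries.

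**Figure D1:**
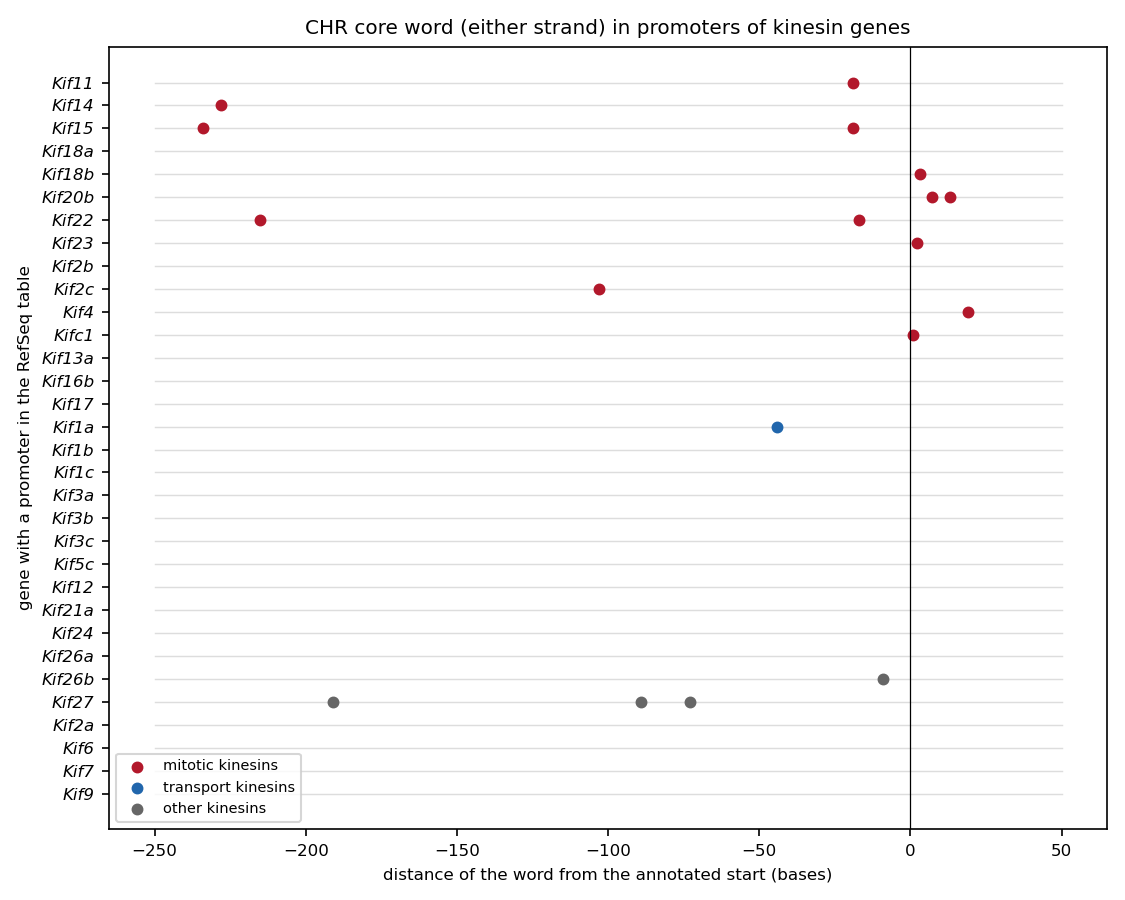
Position of the CHR core word on either strand in the promoters of the 32 kinesin genes in the RefSeq table, in bases from the annotated start (line at 0), with 1 row per gene and points coloured by role. Points of mitotic kinesins cluster near the start (8 genes within 50 bases), while most transport and other kinesin genes have no point.

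Levels of different genes are compared here in TPM, which are scaled to transcript length. Mitotic kinesins were the higher group, with a median over genes of 27.1 TPM (mean of the 12 libraries), against 8.71 TPM for transport and 1.42 TPM for other kinesins. Above 10 TPM stood 11 of 13 mitotic, 8 of 16 transport and 2 of 12 other kinesins, and below 1 TPM stood 1, Kif2b, of the mitotic, 2 of the transport and 5 of the other kinesins. Highest was Kif23, the motor of centralspindlin, which bundles midzone microtubules for cytokinesis, with 59.9 TPM (41.7 to 75.2 over libraries). Kif5b, the ubiquitous conventional kinesin heavy chain, followed with 49.8 TPM (22.5 to 69.4). Next came 3 spindle motors, Kif15 with 47 TPM (23.2 to 59.8), Kifc1 with 44.5 TPM (31.3 to 54) and Kif20a with 43.2 TPM (30.8 to 56.9). Each of these neighbours overlapped the next in its range over the 12 libraries.

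The rank of Kif23 depended on which transcripts were summed. Of its TPM, 34.8% lay in protein-coding transcripts, and on those alone it was 8th with 20.9 TPM, while Kif20a was 1st with 40.3 TPM. Kif14, a midbody motor, had 14.6% of its 13.2 TPM in protein-coding transcripts, and Kif24, a ciliary kinesin that also trims centriolar microtubules, 26.6% of 15.7 TPM. Estimates for single transcripts are less certain than gene sums. The longest Kif23 transcript, Kif23-201, had 6.26, 10.2 and 8.24 TPM in TKO_96h, against 18.4, 13.7 and 18.1 TPM in TKO_40h, so that its groups did not overlap. For Kif23-204, Kif23-205 and Kif23-211 the same groups overlapped.

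Among transport kinesins, Kif13a, a carrier of endosomal cargo, had 26.7 TPM, Kif1b, a vesicle and mitochondria carrier, 18.5 TPM, and Kif13b 15.2 TPM. The neuronal heavy chains were lower, with 11.5 TPM for Kif5c and 1.58 TPM for Kif5a, and so was Kif1a, the synaptic vesicle carrier, with 1.19 TPM. Of the other kinesins, Kif2a, a microtubule depolymerase, had 22.2 TPM, Kif21a, which restrains microtubule growth, 6.3 TPM and Kif7, a regulator of Hedgehog signalling in the cilium, 3.68 TPM. At the bottom, Kif2b was counted in 2 of 12 libraries (4 counts in all, at 0 in 10) and Kif12 in 1 (5 counts, at 0 in 11).

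**Figure D2:**
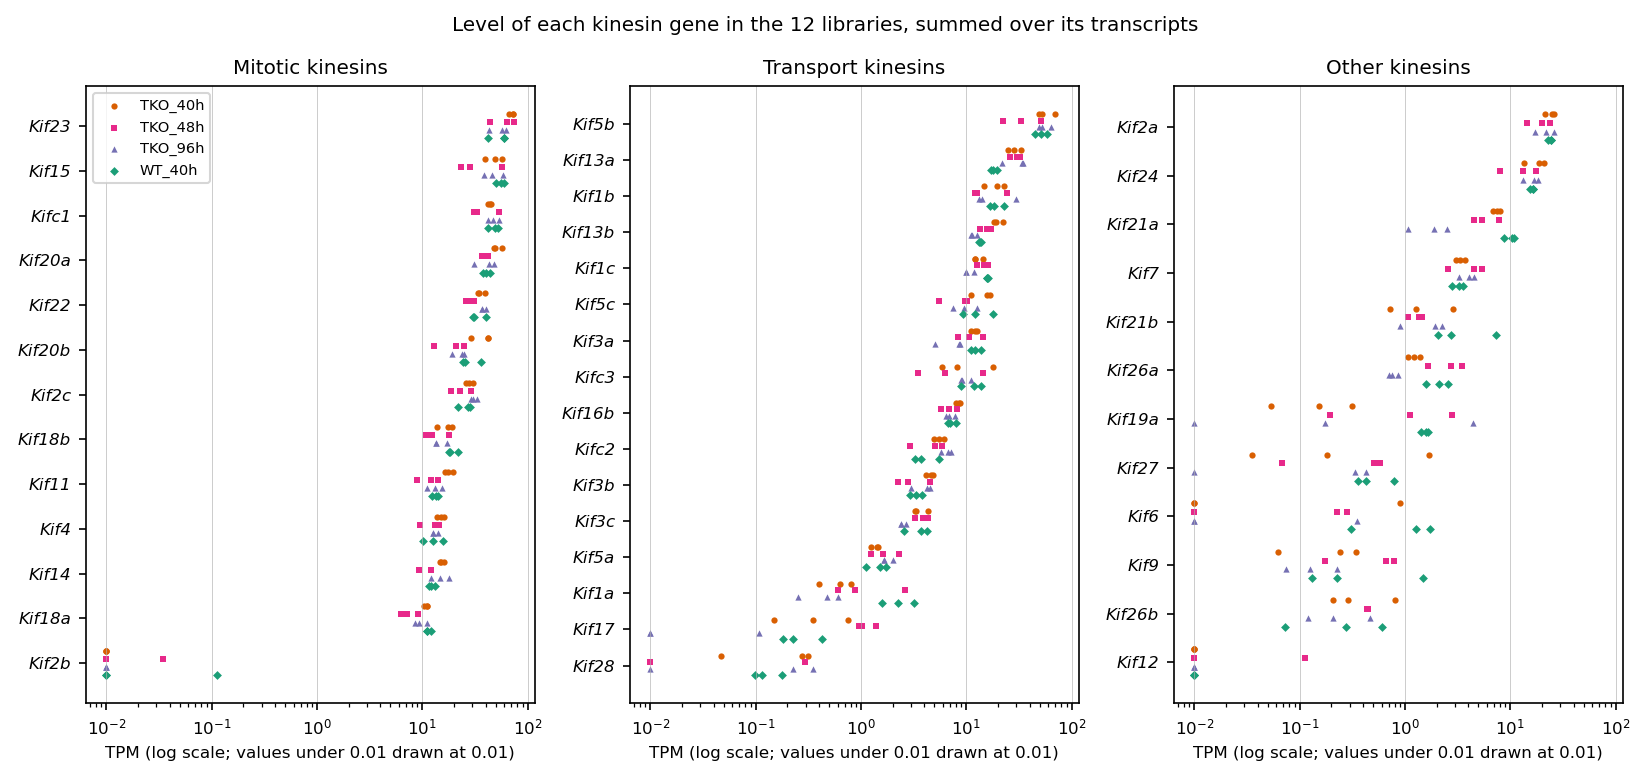
TPM of each kinesin gene in each of the 12 libraries (log axis, values under 0.01 drawn at 0.01), in panels for mitotic, transport and other kinesins, with 1 row per gene and 1 marker shape per group. Mitotic kinesins except Kif2b lie between 6.24 and 75.2 TPM, while transport and other kinesins also hold genes under 1 TPM.

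Some counts share sequence with other genes. Of the 31-base words in the longest Kifc1 transcript, 64.8% also occurred in transcripts of other genes, 58.7% in those of Kifc5b. For Kif20a this share was 32.6%, all with its neighbour Cdc23, for Kif2a 22.7% with Dimt1, and for Kif4 16.9%, mostly with Pdzd11. Levels of these 4 genes are therefore uncertain. It was 0% for Kif20b, Kif21a, Kif23, Kif13b and Kif16b, and 8.71% for Kif11.

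The proportion of mitotic to transport kinesins depended on the scale. The ratio of summed mitotic to summed transport TPM was 1.79, 2.24 and 1.9 in TKO_40h, 1.93, 1.82 and 1.9 in TKO_48h, 1.96, 1.84 and 2.13 in TKO_96h, and 1.96, 1.84 and 2.2 in WT_40h. On this scale all groups overlapped, with means of 1.98 ± 0.24, 1.88 ± 0.06, 1.98 ± 0.14 and 2 ± 0.18 (SD, n = 3 each) in the same order. In CPM, which compare 1 gene set between groups, the summed mitotic level was 1495 to 1570 in TKO_40h, 1354 to 1440 in TKO_48h, 1237 to 1387 in TKO_96h and 1403 to 1454 in WT_40h. The summed transport level was 1085 to 1104, 1106 to 1164, 895 to 977 and 1073 to 1131 CPM in the same groups. The ratio of these CPM sums, in which long transcripts weigh more, was 1.35 to 1.42 in TKO_40h, 1.16 to 1.3 in TKO_48h, 1.37 to 1.42 in TKO_96h and 1.24 to 1.35 in WT_40h. On the CPM scale TKO_48h lay below TKO_40h and TKO_96h without overlap, and TKO_96h lay above WT_40h. TKO_96h was the lowest group in transport sum, with no overlap with any other group, and its mitotic sum overlapped only that of TKO_48h.

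**Figure D3:**
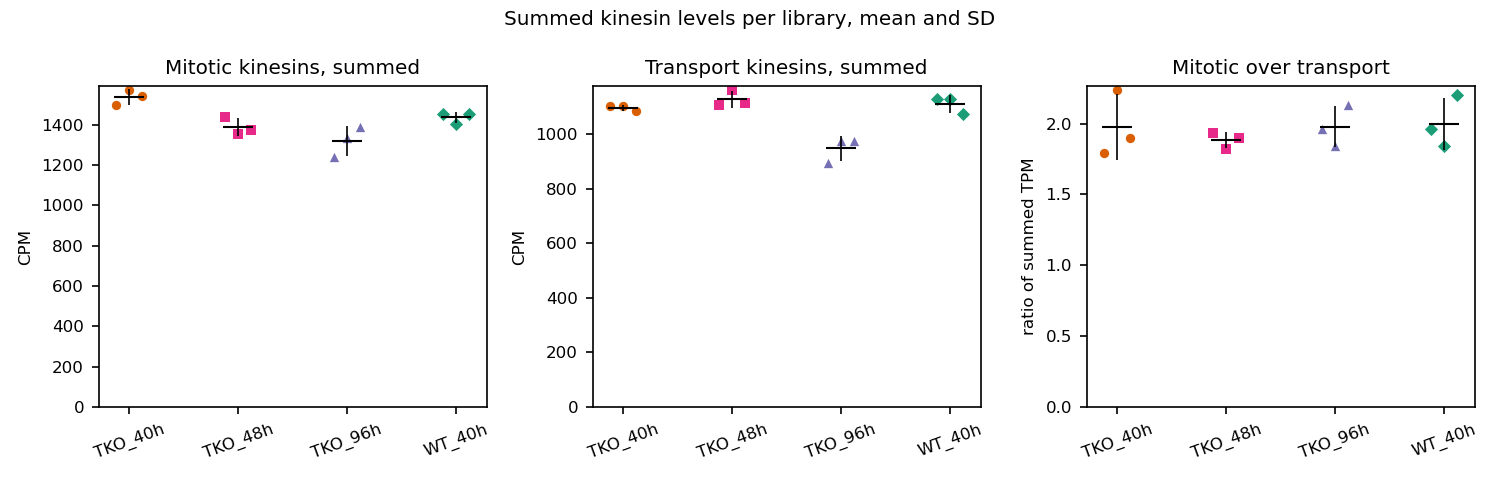
Summed CPM of the mitotic kinesins (left) and the transport kinesins (middle), and the ratio of their summed TPM (right), per library (points) with mean and SD of 3 (lines). The transport sum of TKO_96h (895 to 977 CPM) lies below all other libraries, and the ratio of TPM sums (1.79 to 2.24) overlaps between groups.

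In tests across all 16178 genes with enough counts, 37 of the 41 kinesins could be tested, and Kif2b, Kif6, Kif9 and Kif12 could not. Called means an adjusted p (Benjamini-Hochberg, edgeR's quasi-likelihood test) below 0.05, and log2 fold changes are on the CPM scale. Of the tested kinesins, 13 were called in at least 1 of 4 comparisons, 3 mitotic, 7 transport and 3 other, and 24 in none, when 25.8% of all tested genes were called in at least 1. In none of the 25 calls did replicates of the compared groups overlap, but these calls were chosen by the test. Groups of some kinesins not called were also apart, as for Kif5a in TKO_96h against TKO_48h (adjusted p = 0.53). How many of all genes had groups apart was not counted. Comparisons that use the same TKO_40h or TKO_48h libraries are not independent of each other, so their values are set side by side below.

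**Figure D4:**
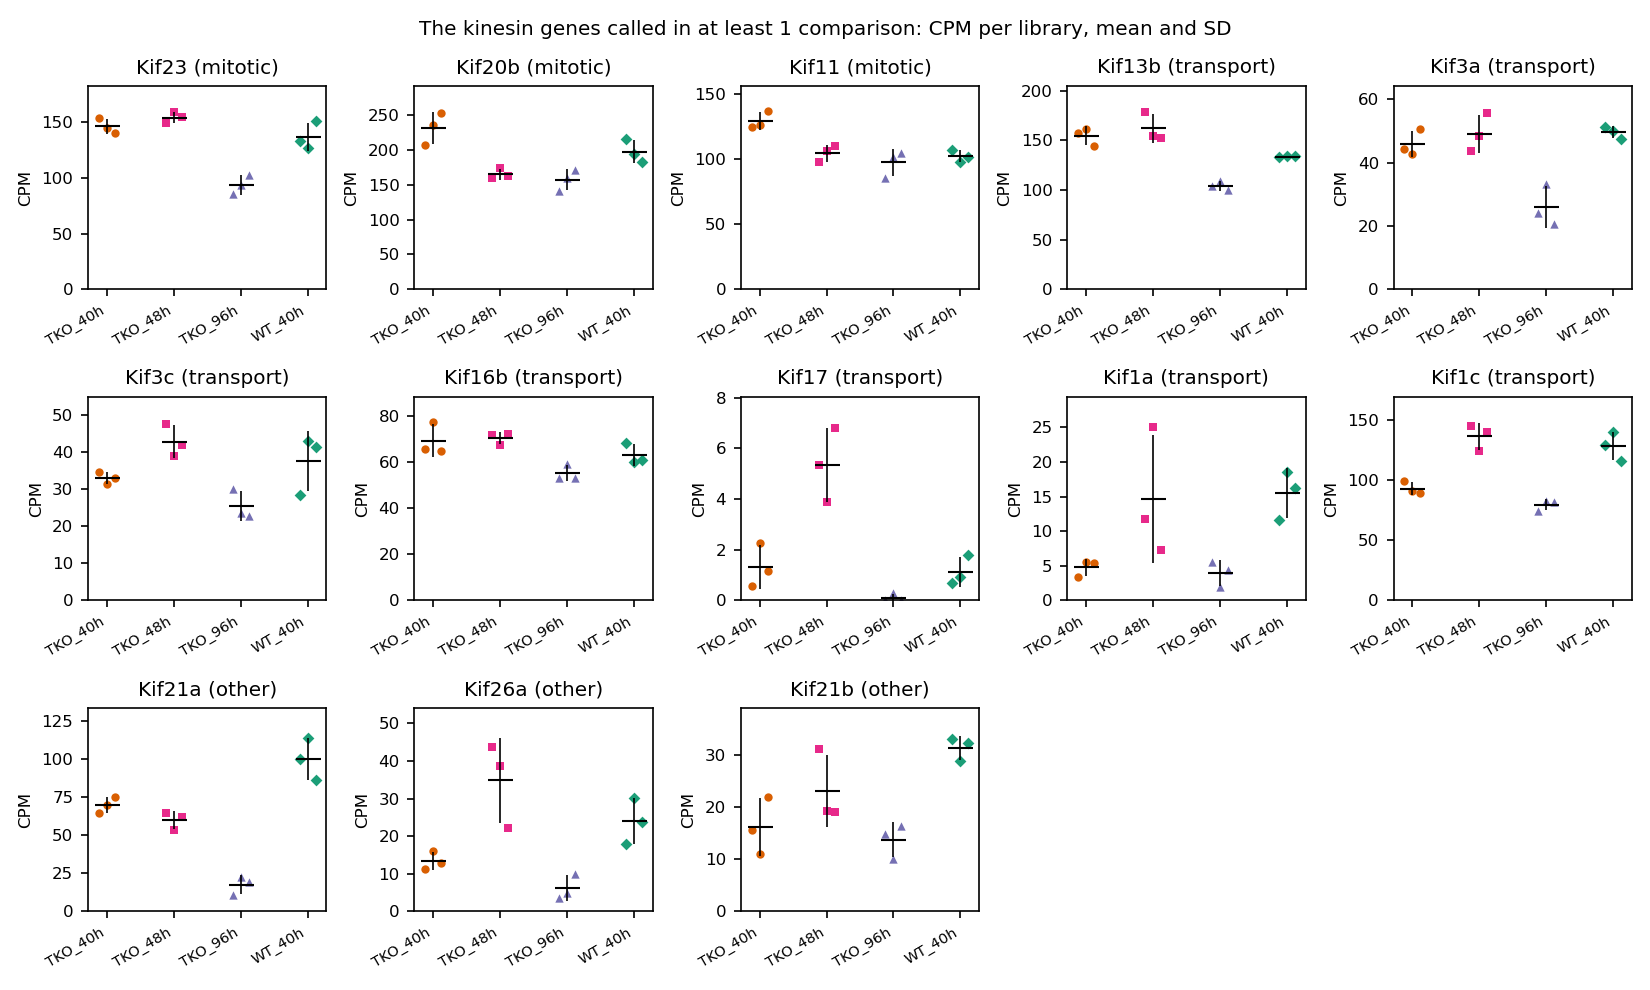
CPM of the 13 kinesins called in at least 1 comparison, per library (points), with mean and SD of 3 (lines), 1 panel per gene and groups along the horizontal axis. Kif21a is lowest in TKO_96h (10.9 to 22.4 CPM), Kif23, Kif13b and Kif3a are likewise lowest in TKO_96h, and Kif1a, Kif1c and Kif26a are higher in TKO_48h than in TKO_40h and TKO_96h.

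At 40 h of priming both genotypes were sequenced, and TKO_40h can be set against WT_40h. In TKO_40h 3 kinesins were lower, the vesicle carriers Kif1c and Kif1a and the microtubule regulator Kif21b, and none was higher, when 3.1% of all tested genes were called (1.48% lower and 1.62% higher). No mitotic kinesin was called, and the median log2 fold change was 0.09 over the 12 tested mitotic kinesins (range -0.22 to 0.34), 0.05 over 16 transport and -0.52 over 9 other kinesins, against 0 over all genes.

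Kif1c (chromosome 11, 70700548 to 70731964), which carries vesicles towards the cell edge, had 98.8, 90.6 and 89.3 CPM in TKO_40h, against 129, 140 and 116 CPM in WT_40h. All TKO_40h libraries lay below all WT_40h libraries, and the log2 fold change with its SE was -0.47 ± 0.11 (adjusted p = 0.024). Kif1a (chromosome 1, 93015464 to 93101951) had 3.32, 5.58 and 5.35 CPM in TKO_40h, against 11.6, 18.6 and 16.3 CPM in WT_40h, again with no overlap (-1.69 ± 0.42, adjusted p = 0.035). Kif21b (chromosome 1, 136131389 to 136177998) had 15.5, 10.9 and 22 CPM in TKO_40h, against 33.1, 28.8 and 32.2 CPM in WT_40h, each TKO_40h library below each of WT_40h (-0.96 ± 0.26, adjusted p = 0.049). These calls were lost without any 1 of several libraries, with the fold changes given beside the adjusted p. The number of kinesins called was 0 when replicate 1 or 2 of TKO_40h or of WT_40h was left out, and 1 when replicate 3 of either was. Kif1a was lost without any 1 of these 6 libraries (adjusted p up to 0.15, log2 fold change -1.86 to -1.50), Kif1c without any but WT_40h replicate 3 (up to 0.14, -0.51 to -0.40) and Kif21b without any but TKO_40h replicate 3 (up to 0.22, -1.01 to -0.74). Kif21b was lost also without TKO_48h replicate 3 or TKO_96h replicate 1 or 3, which share the estimate of spread (up to 0.058), and with RLE size factors (0.051).

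Other kinesins were not called although their groups were apart. Kif21a had 64.6, 69.5 and 74.9 CPM in TKO_40h, against 100, 114 and 86.4 CPM in WT_40h (log2 fold change -0.52 ± 0.17, adjusted p = 0.12). Kif11, the tetrameric motor that pushes spindle poles apart, had 125, 126 and 137 CPM in TKO_40h, against 107, 97.9 and 102 CPM in WT_40h (0.34 ± 0.11, adjusted p = 0.1). Kif19a, which limits the length of motile cilia, had 0.138, 0.665 and 0.698 CPM in TKO_40h, against 4.01, 3.34 and 3.73 CPM in WT_40h (-2.83 ± 0.95, adjusted p = 0.12). Kif26a had 11.3, 16 and 12.8 CPM in TKO_40h, against 17.9, 30.2 and 23.8 CPM in WT_40h (-0.84 ± 0.31, adjusted p = 0.17). Kif21a, Kif11, Kif19a and Kif26a were called when only the 2 groups compared entered the fit (adjusted p of 0.0065, 0.019, 0.017 and 0.026). That fit called 1279 genes in place of 501.

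Between 48 and 40 h of priming, transport kinesins Kif1c and Kif1a and the non-motile kinesin Kif26a were higher in TKO_48h, and the mitotic kinesin Kif20b was lower. These 4 calls compare with 5.49% of all tested genes (2.57% higher and 2.92% lower). The median log2 fold change of TKO_48h against TKO_40h was -0.13 over mitotic kinesins (range -0.49 to 0.19), 0.09 over transport and 0.49 over other kinesins, against 0 over all genes. The share of ribosomal RNA was above that of all other libraries in all 3 TKO_48h libraries, and its part in these results was not tested.

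Kif1c had 145, 124 and 140 CPM in TKO_48h, against 98.8, 90.6 and 89.3 CPM in TKO_40h. All TKO_48h libraries were above all TKO_40h libraries (log2 fold change 0.55 ± 0.11, adjusted p = 0.0059), and of the alternatives tried only an effective length offset ended the call (adjusted p = 0.065). Kif1a had 11.7, 25.1 and 7.24 CPM in TKO_48h, against 3.32, 5.58 and 5.35 CPM in TKO_40h (1.63 ± 0.42, adjusted p = 0.029), with TKO_48h replicate 2 far above the other two. Without that library the log2 fold change was 0.98 (adjusted p = 0.18), and the call was lost also without TKO_40h replicate 1, 2 or 3 (0.14, 0.073 and 0.076) or with only the groups compared (0.058). In WT_40h, Kif1c had 129, 140 and 116 CPM and Kif1a 11.6, 18.6 and 16.3 CPM, and both overlapped TKO_48h. The same TKO_40h libraries entered the calls of both genes against WT_40h, so the calls are not separate results.

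Kif26a (chromosome 12, 112146208 to 112181747), an atypical kinesin that lacks ATPase activity and dampens growth factor signalling in enteric neurons, had 43.8, 38.6 and 22.2 CPM in TKO_48h, against 11.3, 16 and 12.8 CPM in TKO_40h. The groups did not overlap (1.38 ± 0.31, adjusted p = 0.013), and the call was lost without TKO_40h replicate 1 or 3 or TKO_48h replicate 1 (adjusted p of 0.073, 0.057 and 0.053). In WT_40h Kif26a had 17.9, 30.2 and 23.8 CPM, which overlapped TKO_48h. Kif20b (chromosome 19, 34922361 to 34975745), a midzone motor needed for abscission, had 159, 174 and 162 CPM in TKO_48h, against 207, 236 and 252 CPM in TKO_40h. Every TKO_48h library was lower (-0.49 ± 0.11, adjusted p = 0.013), and the call was lost without TKO_40h replicate 2 or 3 or TKO_48h replicate 3 (0.057, 0.082 and 0.056). The count of kinesins called was 2 without TKO_40h replicate 1 or 2, and 1 without TKO_40h replicate 3.

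Kif5b was close to the threshold, with 226, 275 and 243 CPM in TKO_48h, against 318, 299 and 321 CPM in TKO_40h (log2 fold change -0.33 ± 0.10, adjusted p = 0.06). Kif7 had 27, 38.6 and 38.6 CPM in TKO_48h, against 23.8, 24.3 and 20.8 CPM in TKO_40h (0.60 ± 0.19, adjusted p = 0.068). DESeq2 called both (adjusted p of 0.015 and 0.045), as well as Kif19a (0.028), which had 3.09, 6.15 and 1.14 CPM in TKO_48h, against 0.138, 0.665 and 0.698 CPM in TKO_40h.

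After 96 h of priming, kinesins of all 3 roles were lower than after 40 h, and none was called higher. The 8 called lower in TKO_96h were mitotic Kif23, Kif20b and Kif11, transport Kif13b, Kif3a and Kif17, and other kinesins Kif21a and Kif26a, when 12.1% of all tested genes were called (7.2% lower and 4.94% higher). The median log2 fold change against TKO_40h was -0.21 over mitotic, -0.20 over transport and -0.20 over other kinesins, against 0 over all genes. Mitotic kinesins ranged from -0.64 to 0.16, with 9 of 12 below 0, and transport kinesins from -3.60 to 0.34, with 12 of 16 below 0. Against TKO_48h, 10 kinesins were called lower and none higher, when 19.5% of all tested genes were called (10.7% lower and 8.82% higher). They were mitotic Kif23, transport Kif1a, Kif1c, Kif3a, Kif3c, Kif13b, Kif16b and Kif17, and other kinesins Kif21a and Kif26a. The median was -0.01 over mitotic kinesins (range -0.72 to 0.15), -0.26 over transport and -0.74 over other kinesins, against 0.01 over all genes.

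**Figure D5:**
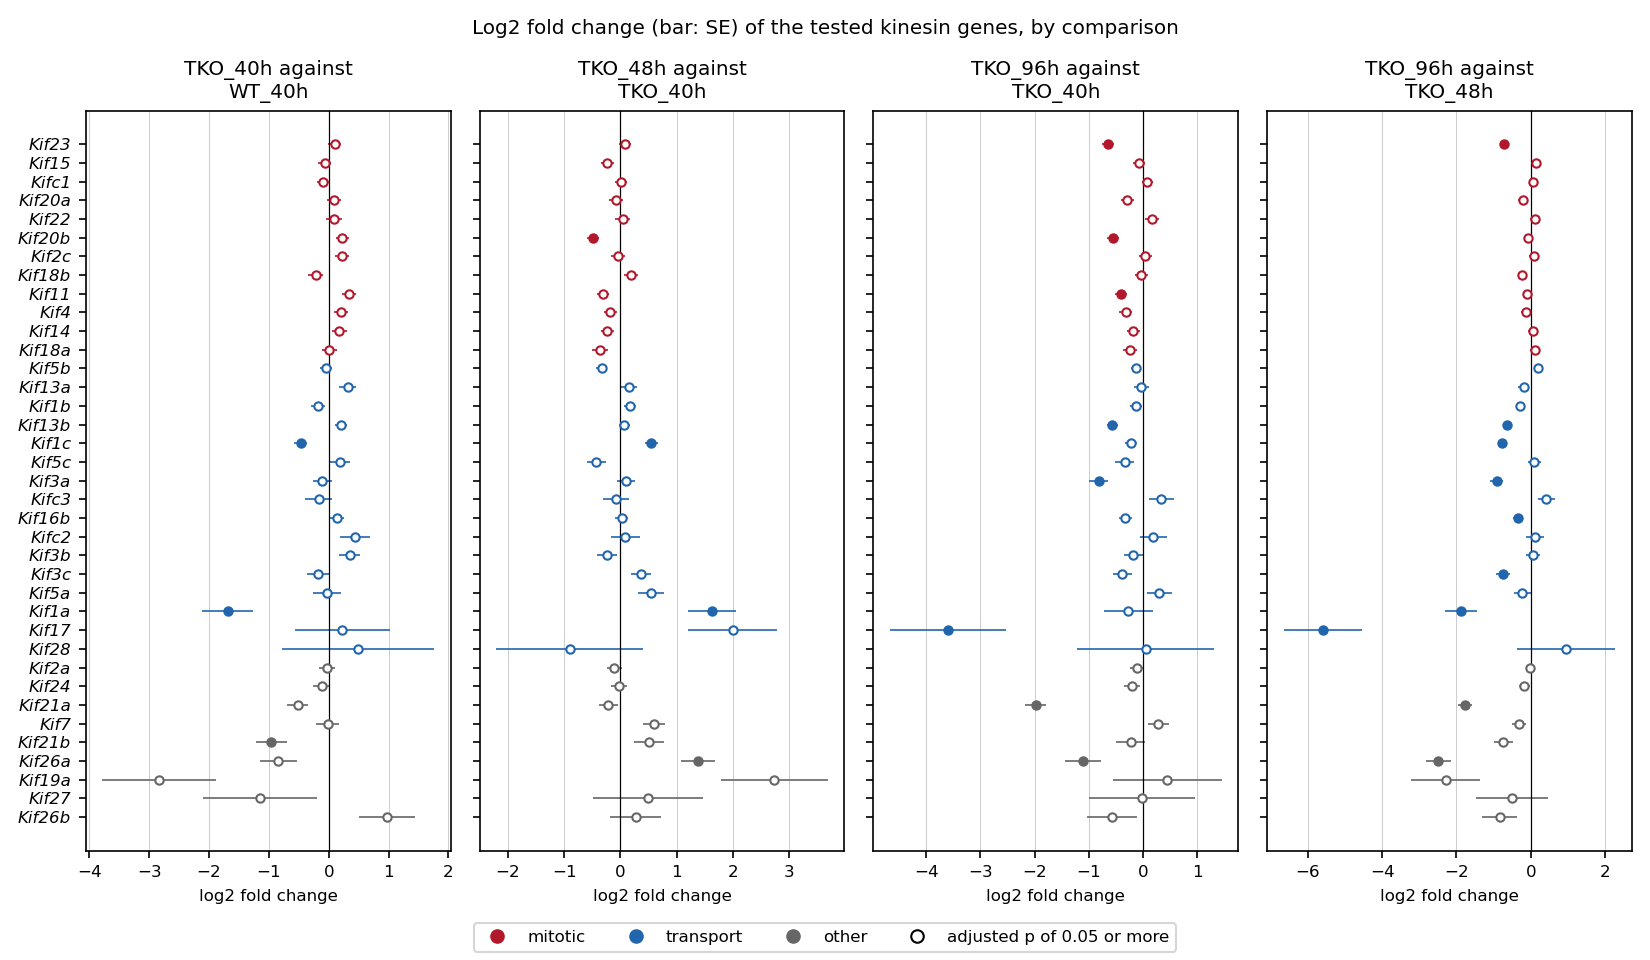
Log2 fold change with its SE for the 37 tested kinesins in the 4 comparisons, each panel with its own horizontal scale. Filled points are called and open points are not, and colours give the role. Mitotic kinesins stay within -0.72 and 0.34 in all panels, and called points in both TKO_96h panels lie below 0.

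Of the mitotic kinesins, Kif23 (chromosome 9, 61915905 to 61946774) had 85.3, 93.5 and 103 CPM in TKO_96h, against 154, 145 and 140 CPM in TKO_40h and 149, 159 and 155 CPM in TKO_48h. On the CPM scale TKO_96h was the lowest group, below every library of the other groups, WT_40h with 133, 127 and 151 CPM included. In TPM, Kif23 had 42.9, 57.2 and 61.9 in TKO_96h, below the 72.2, 73.2 and 66.9 of TKO_40h. These TPM overlapped TKO_48h (44.5, 75.2 and 63.6) and WT_40h (59.4, 41.7 and 60). The log2 fold change was -0.64 ± 0.11 against TKO_40h (adjusted p = 0.00051) and -0.72 ± 0.11 against TKO_48h (adjusted p = 9.6e-05). Both calls held without each library in turn and were lost with an effective length offset (adjusted p of 0.21 and 0.092). Kif20b had 141, 159 and 171 CPM in TKO_96h, all below the 207, 236 and 252 CPM of TKO_40h (-0.56 ± 0.11, adjusted p = 0.002), while its level overlapped that of TKO_48h. WT_40h had 215, 194 and 183 CPM, overlapping TKO_40h.

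Kif11 (chromosome 19, 37376403 to 37421859) had 85.9, 102 and 105 CPM in TKO_96h, against 125, 126 and 137 CPM in TKO_40h (-0.40 ± 0.11, adjusted p = 0.018). The groups did not overlap, but the call was lost without TKO_40h replicate 3 or TKO_96h replicate 1 (adjusted p of 0.092 and 0.089). The other 9 tested mitotic kinesins were not called in either comparison. Among them, Kif4 had 69.9, 73.5 and 84.7 CPM in TKO_96h, against 95.9, 94 and 95.3 CPM in TKO_40h. These groups were apart (-0.32 ± 0.12, adjusted p = 0.079), while Kif4 in TKO_96h overlapped TKO_48h. Kif15, a motor that helps keep the spindle bipolar, had 164, 171 and 171 CPM in TKO_96h, against 180, 163 and 193 CPM in TKO_40h. Kif20a, which brings the chromosomal passenger complex to the midzone, had 116, 144 and 144 CPM in TKO_96h, against 173, 166 and 154 CPM in TKO_40h. At TKO_48h, Kif15 had 142, 171 and 144 CPM and Kif20a 181, 135 and 151 CPM, and both overlapped TKO_96h. Kifc1, a minus end-directed spindle motor, had 148, 156 and 146 CPM in TKO_96h, against 141, 155 and 129 CPM in TKO_40h, with overlap.

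The mitotic kinesins that act on microtubule ends, Kif18a, Kif18b and Kif2c, were not called in any comparison. Kif18a, which damps chromosome oscillation at the metaphase plate, had 50.5, 51.2 and 50 CPM in TKO_40h, 38.3, 41.3 and 38.8 CPM in TKO_48h, 50.3, 39.9 and 38.6 CPM in TKO_96h, and 47.6, 49.7 and 53.1 CPM in WT_40h. All TKO_48h libraries lay below all TKO_40h libraries (log2 fold change -0.36 ± 0.14, adjusted p = 0.14). Kif18b, which shortens astral microtubules, had 65.4, 76.8 and 59.3 CPM in TKO_40h, 76.8, 75 and 78.7 CPM in TKO_48h, 59.9, 73.2 and 63.8 CPM in TKO_96h, and 74.1, 82.5 and 78.9 CPM in WT_40h. TKO_96h lay below TKO_48h without overlap (-0.23 ± 0.12, adjusted p = 0.22). Kif2c, the centromeric depolymerase that corrects wrong attachments, had 103, 113 and 113 CPM in TKO_40h, 118, 90.3 and 112 CPM in TKO_48h, 112, 110 and 117 CPM in TKO_96h, and 101, 85.6 and 95.2 CPM in WT_40h. All TKO_40h libraries were above all WT_40h libraries (0.22 ± 0.12, adjusted p = 0.38).

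The lowered transport kinesins include both a cilium builder and long-range carriers. Kif3a (chromosome 11, 53567379 to 53601967), the shared subunit of heterotrimeric kinesin, had 24.2, 33.3 and 20.6 CPM in TKO_96h, against 44.4, 42.8 and 50.6 CPM in TKO_40h and 43.5, 48.4 and 55.5 CPM in TKO_48h. TKO_96h lay below every other library, with log2 fold changes of -0.82 ± 0.17 against TKO_40h (adjusted p = 0.0027) and -0.92 ± 0.17 against TKO_48h (adjusted p = 0.00067). With an effective length offset the TKO_40h comparison had an adjusted p of 0.056. Its partner Kif3b was not called in either comparison, with 27.5, 34 and 43 CPM in TKO_96h, against 39.8, 38.4 and 40.5 CPM in TKO_40h. Kif3c, a neuronal relative that also pairs with Kif3a, had 30, 23.5 and 22.6 CPM in TKO_96h, against 47.6, 38.8 and 41.8 CPM in TKO_48h (-0.75 ± 0.18, adjusted p = 0.0057). All TKO_96h libraries were below all TKO_48h libraries, and TKO_40h had 34.7, 31.4 and 33 CPM.

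Kif13b (chromosome 14, 64647265 to 64809617), a carrier of membrane proteins, had 104, 109 and 99.6 CPM in TKO_96h, against 158, 162 and 144 CPM in TKO_40h and 179, 155 and 153 CPM in TKO_48h. Every TKO_96h library was below every library of the other groups, and WT_40h had 133, 134 and 134 CPM. The log2 fold change was -0.57 ± 0.10 against TKO_40h (adjusted p = 0.00095) and -0.64 ± 0.10 against TKO_48h (adjusted p = 0.0002), and both calls held under all alternatives tried. Kif1c had 74.3, 82.4 and 81.5 CPM in TKO_96h, below all TKO_48h libraries (-0.78 ± 0.11, adjusted p = 5.5e-05). Kif1a had 5.59, 1.96 and 4.35 CPM in TKO_96h, likewise below all TKO_48h libraries (-1.89 ± 0.43, adjusted p = 0.0042). Against TKO_40h neither Kif1c (-0.23 ± 0.11, adjusted p = 0.21) nor Kif1a (-0.27 ± 0.45, adjusted p = 0.78) was called. There the groups were apart for Kif1c and overlapped for Kif1a.

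Kif16b, a carrier of early endosomes, had 53.1, 59.1 and 53 CPM in TKO_96h, against 71.8, 67.4 and 72 CPM in TKO_48h. These groups did not overlap (-0.35 ± 0.12, adjusted p = 0.043; TKO_40h had 65.5, 77.4 and 64.8 CPM), yet the call was lost when any 1 of the 12 libraries was left out (adjusted p of 0.053 to 0.13). Kif17, a carrier to dendrites and cilia that in mouse testis also binds a transcriptional coactivator of germ cells, was scarce. It had 0, 0.28 and 0 CPM in TKO_96h, against 0.553, 2.26 and 1.16 CPM in TKO_40h and 5.33, 3.88 and 6.82 CPM in TKO_48h, and 0.668, 0.934 and 1.8 CPM in WT_40h. Every TKO_96h library was below all others. The estimated counts over 3 libraries were 2 in TKO_96h, against 31 in TKO_40h and 108 in TKO_48h. The depth-scaled ratio was 0.0706 against TKO_40h (95% interval 0.00818 to 0.277) and 0.0176 against TKO_48h (0.00211 to 0.0653), intervals that cover counting error only. The adjusted p was 0.031 and 0.0008. The TKO_40h call was lost without TKO_40h replicate 2 or 3, TKO_48h replicate 3 or TKO_96h replicate 1 or 3 (adjusted p up to 0.13), and with only the groups compared the gene could not be tested.

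Some transport kinesins at a higher level were not called. Kif5b had 267, 297 and 295 CPM in TKO_96h, against 318, 299 and 321 CPM in TKO_40h and 226, 275 and 243 CPM in TKO_48h, overlapping TKO_48h. Kif13a had 94.4, 115 and 126 CPM in TKO_96h, against 123, 118 and 102 CPM in TKO_40h and 123, 133 and 126 CPM in TKO_48h. Kif1b had 111, 122 and 116 CPM in TKO_96h, against 111, 135 and 134 CPM in TKO_40h and 138, 158 and 134 CPM in TKO_48h (log2 fold change -0.30 ± 0.11 against TKO_48h, adjusted p = 0.07).

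Kif21a (chromosome 15, 90933276 to 91049948), whose human gene is mutated in an inherited eye movement disorder, had 10.9, 22.4 and 19.4 CPM in TKO_96h, against 64.6, 69.5 and 74.9 CPM in TKO_40h and 64.6, 53.2 and 62.2 CPM in TKO_48h. Each TKO_96h library was far below each library of the other groups. The log2 fold change was -1.98 ± 0.19 against TKO_40h (adjusted p = 6.2e-07) and -1.77 ± 0.19 against TKO_48h (adjusted p = 2.1e-06), and both calls held under every alternative, with adjusted p of at most 0.0001 and 0.00022. Kif26a had 3.62, 4.76 and 10 CPM in TKO_96h, below all TKO_40h and all TKO_48h libraries. Its log2 fold change was -1.11 ± 0.33 against TKO_40h (adjusted p = 0.035) and -2.49 ± 0.33 against TKO_48h (adjusted p = 2.6e-05). The TKO_40h call was lost without TKO_40h replicate 2 or 3 or TKO_96h replicate 1 or 2 (adjusted p of 0.074 to 0.16). Kif21b had 14.9, 9.94 and 16.4 CPM in TKO_96h, against 31.1, 19.3 and 19 CPM in TKO_48h (-0.74 ± 0.26, adjusted p = 0.055). Kif2a had 71, 101 and 99.2 CPM in TKO_96h, against 97, 92.4 and 105 CPM in TKO_40h, and Kif24 had 39.3, 41.7 and 47.1 CPM, against 40.9, 53.4 and 52.6 CPM, with overlap in both. Against TKO_40h, 8 kinesins were called with all libraries and 5 without TKO_40h replicate 3 or without TKO_96h replicate 1.

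An offset for the effective transcript length of each library ended 13 of the 25 calls. Beside those given above, these were Kif1c, Kif1a and Kif21b in TKO_40h against WT_40h (adjusted p of 0.21, 0.082 and 0.26), and Kif1a and Kif20b in TKO_48h against TKO_40h (0.18 and 0.092). In TKO_96h they were Kif11, Kif17 and Kif26a against TKO_40h (0.079, 0.067 and 0.27) and Kif16b against TKO_48h (0.26). With the offset some of these fold changes were larger, at -2 for Kif1a and -1.42 for Kif21b against WT_40h, -0.66 for Kif20b in TKO_48h, and -3.74 for Kif17 and -0.42 for Kif11 in TKO_96h against TKO_40h. Others were smaller, at -0.38 for Kif1c against WT_40h, 1.40 for Kif1a in TKO_48h, -0.28 for Kif16b in TKO_96h against TKO_48h, and -0.38 for Kif23 and -0.65 for Kif26a in TKO_96h against TKO_40h.

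Markers of germ cells and of other cell types also differed in TKO_96h. Of the 10 germ cell markers, 3 were lower in TKO_96h than in TKO_40h, Dppa3 (18.5 against 51.5 CPM on average), Tfap2c (28.1 against 48.6) and Prdm1 (10.4 against 20.9), and Pou5f1 was higher (794 against 525). The same 4 were called in the same directions against TKO_48h. The summed level of 12 neural markers was 342 to 403 CPM in TKO_96h, against 223 to 265 CPM in TKO_40h and TKO_48h. Of the 10 tested against TKO_40h, 3 were higher (Stmn2, Nes and Tubb3) and 1 was lower (Elavl3), when 4.94% of all genes were higher and 7.2% lower. Against TKO_48h, 4 neural markers were higher (Stmn2, Tubb3, Sox1 and Nes) and 2 lower (Elavl3 and Elavl4). Neurog2 was at 0 in TKO_40h and WT_40h. The sum of 7 trophoblast markers was 31 to 34.9 CPM in TKO_96h, against 58.8 to 76.7 CPM in TKO_40h and TKO_48h. Of 6 tested, 2 were lower than in TKO_40h (Krt8 and Gata3) and none higher, with a median log2 fold change of -0.69. Against TKO_48h, 1 was called in each direction, when 8.82% of all genes were higher and 10.7% lower. The median there was -0.04, so the list did not fall as a whole. The sum of 8 mesoderm markers was 14.3 to 20.8 CPM in TKO_96h, against 27.8 to 33.3 CPM in TKO_40h and TKO_48h, with T at 0 in TKO_96h. The sum of 6 endoderm markers was 6.3 to 16.7 CPM in TKO_96h, against 19 to 25.8 CPM, with Afp and Apoa1 at 0 in TKO_96h. In TKO_40h, the trophoblast sum was 58.8 to 74.6 CPM, against 39.7 to 55.7 CPM in WT_40h, and the mesoderm sum 29.6 to 33.3 CPM, against 11.4 to 14.8 CPM. The endoderm sum was 19 to 25.3 CPM in TKO_40h, against 13.6 to 17 CPM in WT_40h, and the neural sum 223 to 240 CPM, against 247 to 260 CPM. No trophoblast, endoderm or neural marker was called there, and of the mesoderm markers only Hand1 was, as higher (all genes 1.62% higher). In the same comparison Dppa3 was higher (51.5 CPM in TKO_40h, against 16.7 in WT_40h) and Kit lower (60.9 against 104). The endothelial genes Sox18 (5.17 CPM in TKO_40h, against 0.402 in WT_40h) and Cdh5 (2.53 against 0.0816) were higher, while the sum of 6 endothelial markers overlapped. In TKO_48h against TKO_40h, Kit, Nes and Krt8 were called higher and no marker on these lists lower. Of all genes, 2.57% were higher and 2.92% lower there. The part of these markers in the kinesin results was not tested.

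In TKO_96h against TKO_40h, 7.2% of all genes were lower and 4.94% higher, with a median log2 fold change of 0. Of 26 spindle and cytokinesis partners of the mitotic kinesins, all tested, 13 were lower and 1 higher, with a median of -0.36. They include Mki67, which coats mitotic chromosomes, averaging 445 CPM in TKO_96h, against 842 in TKO_40h (-0.92 ± 0.11, adjusted p = 1.1e-05), the checkpoint kinase Bub1 (-0.78 ± 0.10, adjusted p = 2.8e-05) and Top2a, which untangles sister chromosomes (-0.72 ± 0.10, adjusted p = 6.8e-05). Birc5, a chromosomal passenger, was higher, averaging 126 CPM in TKO_96h, against 96.6 in TKO_40h (0.38 ± 0.11, adjusted p = 0.028). Cenpe, counted among those lower, is itself a mitotic kinesin that the symbol rule leaves out (-0.76 ± 0.13, adjusted p = 0.0005). In TKO_96h against TKO_48h, 6 partners were lower and 2 higher (median -0.08), when 10.7% of all genes were lower and 8.82% higher. In TKO_48h against TKO_40h, 4 were lower and none higher (median -0.21), when 2.92% of all genes were lower and 2.57% higher. For TKO_40h against WT_40h only Ccnb1, a mitotic cyclin, was called, and it was higher (0.46 ± 0.10, adjusted p = 0.016, median of the list 0.22). Of all genes, 1.62% were higher and 1.48% lower in that comparison. The list summed to 6632 to 6800 CPM in TKO_40h, 5272 to 5749 in TKO_48h, 4495 to 4969 in TKO_96h and 5696 to 5954 in WT_40h, so that TKO_40h was above and TKO_96h below all other libraries. Whether the partners and the member motors differ in their change was not tested.

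Of the kinesin light chains and cargo adaptors, 17 genes, none was called for TKO_48h against TKO_40h (0 of 17, against 5.49% of all genes). In TKO_96h 1 was lower than in TKO_40h, when 7.2% of all genes were lower and 4.94% higher. Against TKO_48h 2 were lower and 1 higher, when 10.7% of all genes were lower and 8.82% higher. These TKO_96h counts were near the shares over all genes. In TKO_40h against WT_40h 2 were lower, when 1.48% of all genes were lower and 1.62% higher. Mapk8ip3, a scaffold that links kinesin-1 to cargo, was lower in 3 comparisons. It averaged 72.2 CPM in TKO_40h, against 103 in WT_40h (-0.51 ± 0.12, adjusted p = 0.028). In TKO_96h it averaged 52.7 CPM, against 72.2 in TKO_40h (-0.45 ± 0.13, adjusted p = 0.022) and 95.9 in TKO_48h (-0.86 ± 0.13, adjusted p = 7.0e-05). Arl8a, a small GTPase that couples lysosomes to kinesins, was lower in TKO_40h than in WT_40h (-0.57 ± 0.15, adjusted p = 0.038).

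Dynein and dynactin, the motor complex that walks the other way along microtubules, had no called gene among 16 in TKO_40h against WT_40h or in TKO_48h against TKO_40h. In TKO_96h, 2 were higher than in TKO_40h, of which Dctn2, a dynactin subunit, averaged 137 CPM in TKO_96h, against 85.2 in TKO_40h (0.68 ± 0.11, adjusted p = 0.00034), and none was lower. These counts compare with 4.94% of all genes higher and 7.2% lower. Against TKO_48h 3 were higher and 2 lower, when 8.82% of all genes were higher and 10.7% lower, and the motor heavy chain Dync1h1 was among those lower (-0.45 ± 0.11, adjusted p = 0.005). Of 16 intraflagellar transport genes, which ride on the Kif3a motor, 1 was lower in TKO_96h than in TKO_40h, Ift88 (-0.83 ± 0.25, adjusted p = 0.031), and 3 were lower and 1 higher than in TKO_48h, led by Ift57 (-1.12 ± 0.19, adjusted p = 0.00038). In TKO_48h against TKO_40h 1, Dync2h1, was lower (-0.57 ± 0.16, adjusted p = 0.039), and in TKO_40h against WT_40h none was called. Over all genes, the called shares of these 4 comparisons were 12.1, 19.5, 5.49 and 3.1% in the order given.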

How the data were processed

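For each transcript the authors deposited an estimated count, not scaled to depth, and a TPM value, scaled by the authors to effective length and depth, per the file headers. Per the submitters' processing notes, Trim Galore 0.6.2 and kallisto were used, with the build GRCm38 (mm10). Not given in the sources used here are kallisto's version and its transcript set. Per the labels, libraries were made from total RNA with a stranded kit.

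Transcripts were matched to GENCODE M21 by ID without version (116728 of 119414), and counts summed per gene and rounded. Transcripts without a match held 2.68 to 4.32% of counts. Genes were filtered with filterByExpr (minimum count 10, total 15), leaving 16178. edgeR 4.0.16 fitted all 12 libraries with TMM and 1 mean per group, with two-sided quasi-likelihood F-tests adjusted over all genes. All adjusted p-values are from this fit unless another tool or alternative is named, and n is 3 per group. The SE was taken as |log2 fold change| over the root of the F statistic. TMM library sizes underlie CPM. Error is SD over replicates. The fit was tested on simulated data.

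The kinesins, role lists, partner lists and markers were chosen with earlier results of these data known. Values per library, in the groups a sentence compares, are given for called members, the 4 of highest TPM per role and up to 3 of smallest adjusted p per role and comparison, with a few more chosen after their values were seen. Partner genes named are among the 4 of smallest adjusted p in their list and comparison, except Birc5 and Cenpe. Birc5 was named as the gene with the opposite direction and Cenpe as a kinesin, both after their values were seen. Promoters are RefSeq's for GRCm38.p6. Kif5a, Kif5b, Kif13b, Kif19a, Kif20a, Kif21b, Kif28, Kifc2 and Kifc3 have no entry in the promoter table used here. Alternatives tried were DESeq2 1.42.0, RLE size factors, no filter, robust fitting, a fit of only the 2 groups compared, an offset for effective length, a replicate block, leaving out each library and, for the ratio, Kif2a counted as mitotic and Kif21a and Kif21b as transport kinesins. With the data in view, fits of protein-coding genes alone (without Ccnb1ip1, Gm20594 and Lars2) and, for the ratio, of protein-coding transcripts only were added.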

Additional observations from a re-analysis of the deposited data

How the results depend on the processing

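No kinesin call changed direction under the alternatives tried. Of the 25 kinesin calls, 11 held under every alternative and 15 without each library in turn. RLE size factors kept 24, DESeq2 and a robust fit 25 each, no filter on low counts 24, only the groups compared 22 and an effective length offset 12. For TKO_40h against WT_40h, 501 genes were called, against 785 with DESeq2, 787 with no filter, 77 with the length offset and 1279 with only the groups compared, and 3 kinesins were called, against 6 with no filter, 0 with the offset and 7 with only the groups compared. For TKO_48h against TKO_40h the offset gave 203 genes in place of 888 and 1 kinesin in place of 4, and DESeq2 gave 7 kinesins. For TKO_96h the offset gave 826 genes and 3 kinesins against TKO_40h (main 1965 and 8), and 1639 genes against TKO_48h (main 3157). The cause was not tested. The ratio of mitotic to transport kinesins was 1.4, 1.23, 1.39 and 1.29 in TKO_40h, TKO_48h, TKO_96h and WT_40h with summed CPM. There TKO_48h did not overlap TKO_40h or TKO_96h. With protein-coding transcripts only, the ratio was 1.94, 1.78, 1.97 and 1.84 in the same order. On that measure TKO_48h (1.59 to 1.88) overlapped every other group. Leaving out 1 library gave 181 to 667, 324 to 1106, 1210 to 2271 and 2344 to 2991 genes called for TKO_40h against WT_40h, TKO_48h against TKO_40h, TKO_96h against TKO_40h and TKO_96h against TKO_48h. It gave 0 to 3, 1 to 5, 5 to 8 and 9 to 11 kinesins, mitotic medians of 0.07 to 0.16, -0.19 to -0.05, -0.23 to -0.15 and -0.07 to 0.04, and transport medians of 0 to 0.10, 0.07 to 0.18, -0.27 to -0.16 and -0.30 to -0.23. Ratios were 1.84 to 2.07, 1.86 to 1.92, 1.90 to 2.05 and 1.90 to 2.08 in TKO_40h, TKO_48h, TKO_96h and WT_40h. Replicate numbers did not pair the samples (correlations of deviations of -0.0598 to 0.0507 over 18 pairs). A replicate block gave 520, 903, 2022 and 3175 genes called in the same 4 comparisons and 3, 4, 8 and 11 kinesins. It kept 24 of the 25 calls, losing Kif16b (adjusted p = 0.051) and adding Kif1b and Kif21b for TKO_96h against TKO_48h (0.048 and 0.028).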
